A study of Bos taurus with 9 samples.

Results

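The genes described here make the building blocks of chondroitin sulfate, assemble its chains and sulfate them. They were all probe sets of a bovine expression array whose only gene symbol was UGDH, UST, BPNT2, PAPSS1, PAPSS2, CSGALNACT2 or CHSY1. Of these 7 genes, 6 had a named probe set, out of 9155 genes with one. They were measured by 11 of the 24016 probe sets tested. UGDH and PAPSS1 had 1 probe set each, and the other 4 genes had 2 or 3. PAPSS2, which makes the same sulfate donor as PAPSS1, had no named probe set and was not analysed here.

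Chondroitin sulfate is a chain of alternating glucuronic acid and N-acetylgalactosamine, built in the Golgi on the serines of proteoglycan core proteins and then sulfated. Its negative charge draws water into cartilage and gives the tissue its resistance to compression, and aggrecan (ACAN) carries most of it there. The chain depends on nucleotide sugars, on the sulfate donor PAPS and on the removal of PAP, the by-product that every sulfotransferase leaves behind.

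RNA was measured on 9 single-colour arrays, 1 per sample, from 3 calves aged 3 to 6 months. The first group was chondrocytes of articular cartilage, put into agarose right after isolation and kept 28 days in defined medium with 10 ng/mL TGF-beta3, a growth factor that induces cartilage formation (day 28 chondrocytes). The second was mesenchymal stem cells (MSCs, marrow stromal cells able to turn into cartilage, bone or fat cells), kept in agarose in the same medium for 28 days (day 28 MSCs). The third was MSCs harvested immediately after they were put into agarose (day 0 MSCs), the baseline without TGF-beta3. Each group had 3 arrays, 1 from each calf, and both cell types came from the same calves. Time in agarose and TGF-beta3 changed together in the MSCs, so their parts in a difference between days cannot be told apart. Day 28 chondrocytes differed from day 0 MSCs in cell type as well as in these, so their parts cannot be told apart there either. Chondrocytes before culture were not analysed here. These are bulk samples, in which fewer cells of a type and less RNA per cell cannot be told apart.

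The labelled cell types were checked against 8 measured chondrocyte markers of 10 listed, among them COL2A1 and COMP. Their mean level per array was 11.30 to 11.45 in day 28 chondrocytes and 10.73 to 11.17 in day 28 MSCs, against 4.92 to 5.34 in day 0 MSCs (log2). All 8 lay above the array median in both day 28 groups, and 3 did in day 0 MSCs. Between the day 28 groups 1 of the 8 was called, CNMD (chondromodulin), at a mean of 9.91 in chondrocytes and 5.99 in MSCs (limma adjusted p = 0.000214), and the median difference of the 8 was -0.048. Mean levels of 10 marrow stromal markers were 5.16 to 5.35 in day 28 chondrocytes, 5.10 to 5.65 in day 28 MSCs and 6.13 to 6.92 in day 0 MSCs. Between the day 28 groups 1 of these was called higher and 1 lower in chondrocytes. Mean levels of 10 blood cell markers were 3.40 to 3.47 in day 28 chondrocytes, 2.90 to 2.98 in day 28 MSCs and 2.75 to 3.78 in day 0 MSCs. Of these 10, 2 lay above the array median in day 28 chondrocytes, 1 in day 28 MSCs and 1 in day 0 MSCs. Between the day 28 groups 1 of the 10 was called by its brightest set, CSF1R, higher in chondrocytes by 1.60 (limma adjusted p = 0.0269). CD14 was higher there by 2.45 on its brighter set, which did not pass (adjusted p = 0.0551), and by 1.47 on the other, which did (adjusted p = 0.0351). Against day 0 MSCs, CSF1R was higher in both day 28 groups, CD14 was higher in day 28 chondrocytes, and AIF1, TYROBP and CD68 were lower in both day 28 groups. Mean levels of 5 measured adipocyte markers were 2.94 to 3.26 in day 28 chondrocytes, 3.09 to 3.48 in day 28 MSCs and 4.61 to 5.01 in day 0 MSCs. FABP4, one of them, averaged 6.11 in day 28 chondrocytes, 5.45 in day 28 MSCs and 10.75 in day 0 MSCs. Of 6 endothelial markers 1 was called, TEK, in both comparisons with day 0 MSCs, and 0 between the day 28 groups. TEK had means of 6.34, 6.36 and 4.15 in day 28 chondrocytes, day 28 MSCs and day 0 MSCs. Mean levels of 6 skeletal muscle markers were 4.05 to 4.09, 3.94 to 4.08 and 4.02 to 4.15 in these groups. Of these markers, 1 was called higher and 1 lower in day 28 chondrocytes than in day 28 MSCs. The part of these marker differences in the results was not tested.

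Hybridisation controls were low on 2 arrays, day 28 chondrocytes of donor 3 and day 28 MSCs of donor 3, with a mean of 9.22 against 12.03 on the other 7, so values without these arrays are given where a call was lost. Control transcripts had a 3′ minus 5′ difference of 1.75 ± 0.14 in day 28 chondrocytes, 1.81 ± 0.18 in day 28 MSCs and 1.36 ± 0.18 in day 0 MSCs (SD, n = 3). Its part in the differences from day 0 was not tested.

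After 28 days under the same conditions, chondrocytes had higher RNA levels than MSCs of the genes for the sugar donor, the sulfate donor, the phosphatase that clears PAP and the uronyl 2-sulfotransferase. UGDH was 3.17-fold higher, UST 2.56-fold, BPNT2 2.07-fold and PAPSS1 1.71-fold. CSGALNACT2, one of the enzymes that start and lengthen the chain, was 1.64-fold lower in chondrocytes by its brighter probe set. CHSY1, a chain polymerase, did not pass the test. Of 22 alternatives in how the data were processed, 6 lost this PAPSS1 call and 7 lost that of CSGALNACT2. Within the MSCs, PAPSS1 rose over the 28 days, as did CSGALNACT2 by its brighter probe set, and BPNT2 fell. The second CSGALNACT2 set did not pass there. The BPNT2 call was lost in 5 of 22 alternatives, each of them on its brighter set. The 22 also included its dimmer set and the mean of both sets.

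**Figure D1:**
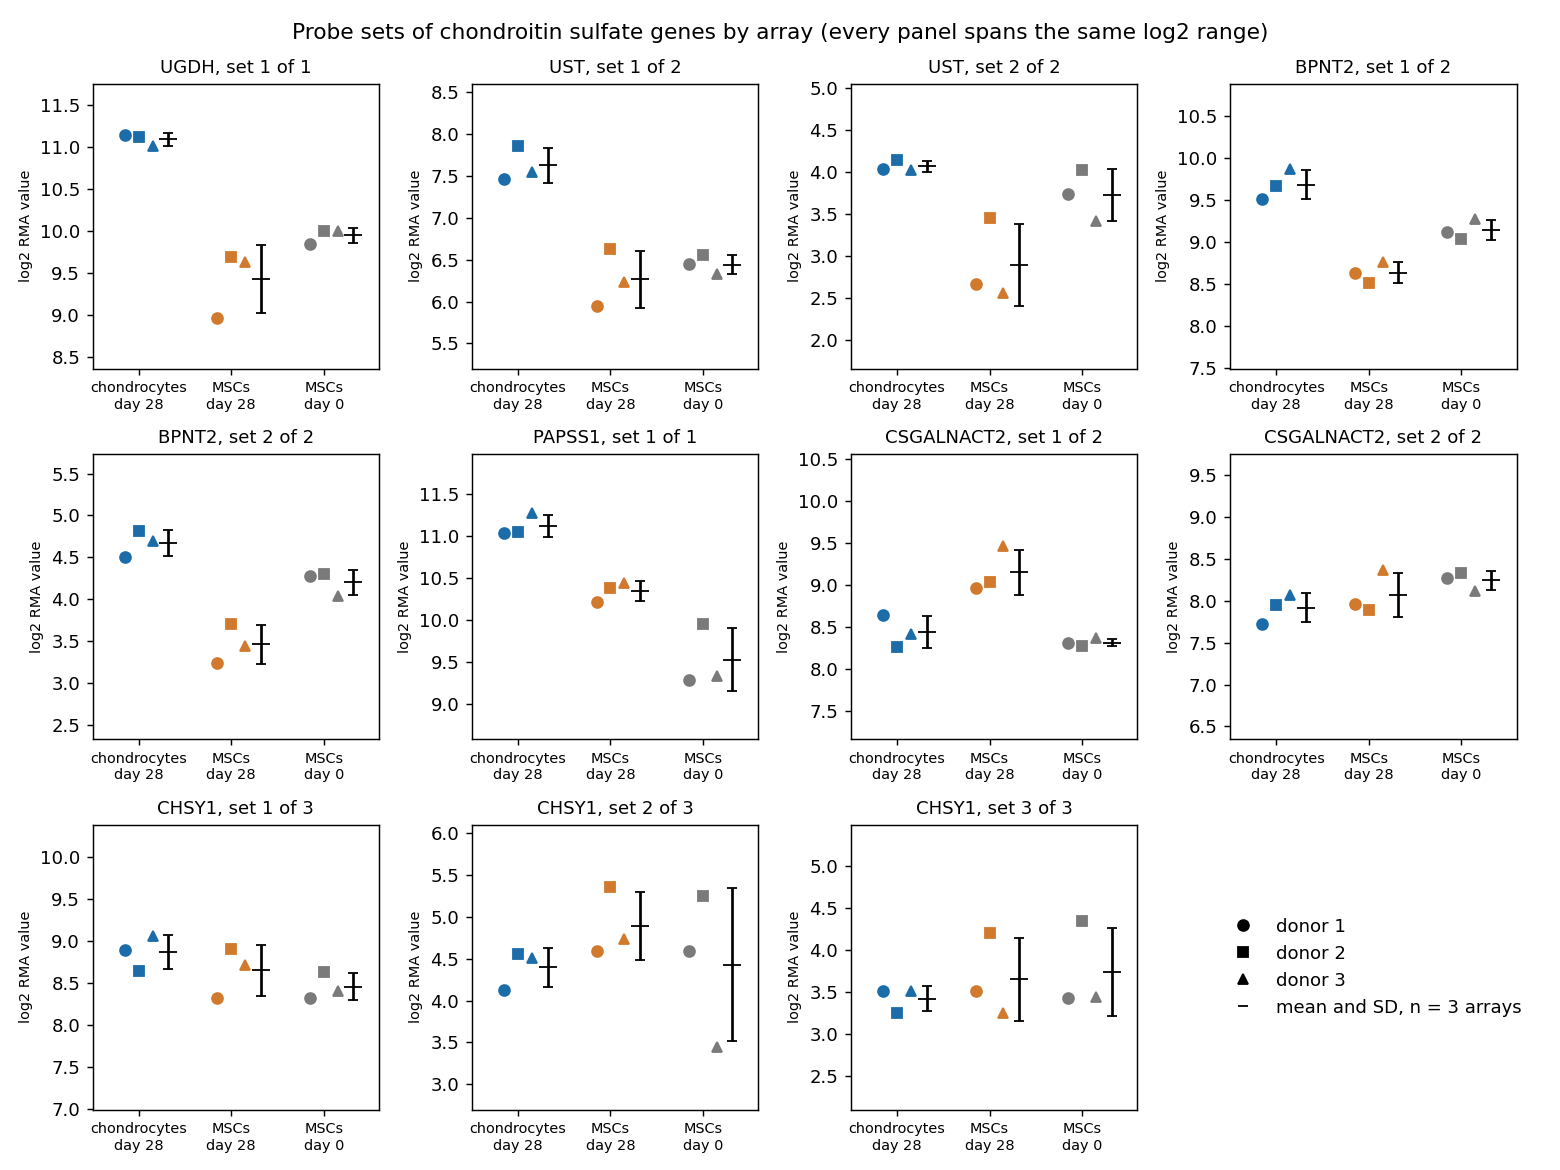
Deposited log2 value of each of the 11 probe sets on each array, by group from left to right as day 28 chondrocytes, day 28 MSCs and day 0 MSCs, with marker shapes for the donors and the mean and SD of 3 arrays. UGDH, both UST sets, both BPNT2 sets and PAPSS1 had every chondrocyte array above every day 28 MSC array, and the brighter CSGALNACT2 set had every one below.

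UGDH oxidises UDP-glucose to UDP-glucuronic acid, the donor of the acidic sugar of chondroitin, heparan and hyaluronan chains. Its log2 level was 11.15, 11.12 and 11.01 in day 28 chondrocytes of donors 1 to 3, against 8.96, 9.69 and 9.63 in day 28 MSCs and 9.85, 10.00 and 10.00 in day 0 MSCs. The chondrocyte arrays lay close together and above all 6 MSC arrays, while day 28 MSCs lay below all day 0 MSCs. The difference between chondrocytes and day 28 MSCs was 1.66 ± 0.19 (SE of limma's model, 95% interval 1.23 to 2.10, Benjamini-Hochberg adjusted p = 0.000908). It was positive in all 3 donors, at 2.19, 1.42 and 1.38, and ranked 309th from the top among 9155 genes. Against day 0 MSCs, chondrocytes were higher by 1.14 ± 0.19 (limma adjusted p = 0.00205). Within the MSCs the change over 28 days was -0.52 ± 0.19 and missed the threshold (limma adjusted p = 0.0725). That change passed without day 28 MSCs of donor 2 (-0.65, adjusted p = 0.0455), with arrays centred on their median (-0.57, adjusted p = 0.0482) and with a trended, robust variance (adjusted p = 0.0475).

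PAPSS1 makes PAPS, the activated sulfate that all Golgi sulfotransferases use, from ATP and sulfate. Its log2 level was 11.03, 11.05 and 11.27 in day 28 chondrocytes, against 10.21, 10.38 and 10.44 in day 28 MSCs and 9.28, 9.95 and 9.33 in day 0 MSCs. The 3 groups formed 3 separate steps, with no array of one group inside the range of another. Chondrocytes exceeded day 0 MSCs by 1.59 ± 0.19, a 3.02-fold difference (limma adjusted p = 0.000317), the largest among the members in that comparison. Day 28 MSCs exceeded day 0 MSCs by 0.82 ± 0.19 (limma adjusted p = 0.0105). The remaining gap between chondrocytes and day 28 MSCs was 0.78 ± 0.19 (95% interval 0.34 to 1.21, limma adjusted p = 0.0332).

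The PAPSS1 call between chondrocytes and day 28 MSCs was lost when any chondrocyte array or day 28 MSCs of donor 1 or 2 were left out. Adjusted p was then 0.0742, 0.0862 and 0.0979 without chondrocytes of donors 1, 2 and 3, and 0.0959 and 0.0766 without day 28 MSCs of donors 1 and 2. The difference itself stayed between 0.70 and 0.82 in these fits. Without both arrays with low hybridisation controls it was 0.75 (adjusted p = 0.121).

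BPNT2 is a Golgi phosphatase that breaks down PAP, and loss of it in mice impairs the sulfation of cartilage chondroitin. Its brighter set had 9.51, 9.67 and 9.87 in day 28 chondrocytes, against 8.63, 8.51 and 8.76 in day 28 MSCs and 9.12, 9.04 and 9.27 in day 0 MSCs (log2). The dimmer set had 4.50, 4.82 and 4.70 in day 28 chondrocytes, against 3.25, 3.70 and 3.44 in day 28 MSCs and 4.28, 4.30 and 4.03 in day 0 MSCs (log2). Both sets put the groups in the same order without overlap, with chondrocytes highest and day 28 MSCs lowest. Chondrocytes exceeded day 28 MSCs by 1.05 ± 0.14 on the brighter set (95% interval 0.72 to 1.38, limma adjusted p = 0.00216) and by 1.21 ± 0.16 on the dimmer (adjusted p = 0.00193).

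Within the MSCs, BPNT2 fell by 0.51 on the log2 scale over 28 days on the brighter set (SE 0.14, limma adjusted p = 0.0252) and by 0.74 on the dimmer (SE 0.16, adjusted p = 0.00753). On the brighter set that call was lost without day 0 MSCs of donor 1 or 3 (adjusted p = 0.0608 and 0.0815), without day 28 MSCs of donor 1 or 2 (0.0566 and 0.0771) and with arrays centred on ribosomal protein genes (0.0574). On the dimmer set it passed in all 19 alternatives run. Against day 0 MSCs, chondrocytes were higher by 0.54 ± 0.14 on the brighter set (limma adjusted p = 0.0194), and the dimmer set missed the threshold at 0.47 ± 0.16 (adjusted p = 0.0548), or passed it with the donor as a block (adjusted p = 0.0417). The brighter set missed it without day 0 MSCs of donor 1 or 2 (adjusted p = 0.0595 and 0.0627), without chondrocytes of donor 3 (0.0690) and without the 2 arrays with low controls (0.0665).

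UST adds sulfate to the uronic acids of chondroitin and dermatan chains at the 2-position. Its brighter set had 7.47, 7.86 and 7.55 in day 28 chondrocytes, against 5.94, 6.62 and 6.23 in day 28 MSCs and 6.44, 6.56 and 6.32 in day 0 MSCs (log2). All chondrocyte arrays lay above all MSC arrays, and the MSC groups overlapped. Chondrocytes were higher than day 28 MSCs by 1.36 ± 0.19 (95% interval 0.93 to 1.79, limma adjusted p = 0.00243) and than day 0 MSCs by 1.18 ± 0.19 (adjusted p = 0.00163). Within the MSCs the difference between days was -0.18 ± 0.19 and did not pass (95% interval -0.61 to 0.26, adjusted p = 0.546).

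The dimmer UST set lay below the array median of about 5, with 4.04, 4.15 and 4.03 in day 28 chondrocytes, against 2.67, 3.46 and 2.57 in day 28 MSCs and 3.74, 4.03 and 3.42 in day 0 MSCs (log2). It separated chondrocytes from day 28 MSCs, by 1.17 ± 0.25 (limma adjusted p = 0.0166), but overlapped between chondrocytes and day 0 MSCs (0.34 ± 0.25, adjusted p = 0.335). It placed day 28 MSCs below day 0 MSCs by 0.83 (SE 0.25, adjusted p = 0.0304), a difference that the brighter set did not pass, and 7 of 19 alternatives lost that call. Among these, adjusted p was 0.0788 and 0.102 without day 0 MSCs of donors 1 and 2, and 0.0928 and 0.0947 without day 28 MSCs of donors 1 and 3. The highest adjusted p of the 19 alternatives was 0.122. The call between chondrocytes and day 28 MSCs was lost on this set without day 28 MSCs of donor 1 (adjusted p = 0.0570), without chondrocytes of donor 2 (0.0650) and without the 2 arrays with low controls (0.0854).

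CSGALNACT2 transfers N-acetylgalactosamine to start the chondroitin chain on the linkage sugars and also lengthens it. Its brighter set had 8.63, 8.26 and 8.42 in day 28 chondrocytes, against 8.96, 9.04 and 9.46 in day 28 MSCs and 8.31, 8.27 and 8.36 in day 0 MSCs (log2). The day 28 MSC arrays stood above all 6 others, which overlapped. Day 28 MSCs exceeded day 0 MSCs by 0.84 ± 0.17 (95% interval 0.46 to 1.21, limma adjusted p = 0.00462), and chondrocytes lay below day 28 MSCs, at -0.71 ± 0.17 (95% interval -1.09 to -0.34, adjusted p = 0.0264). Chondrocytes and day 0 MSCs differed by 0.12 ± 0.17 (95% interval -0.25 to 0.50, adjusted p = 0.619).

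The second CSGALNACT2 set did not show these differences. It had 7.72, 7.95 and 8.07 in day 28 chondrocytes, against 7.96, 7.89 and 8.37 in day 28 MSCs and 8.28, 8.34 and 8.12 in day 0 MSCs (log2), and no comparison passed (limma adjusted p = 0.656, 0.493 and 0.174). With the mean of both sets in place of the brighter one, the MSC change was 0.33 (adjusted p = 0.122) and the difference between chondrocytes and day 28 MSCs was -0.43 (adjusted p = 0.0959). On the brighter set alone, that difference lost its call without day 28 MSCs of donor 3 (-0.56, adjusted p = 0.0557), without chondrocytes of donor 2 (-0.62, 0.104) or donor 3 (-0.70, 0.0704), and without both low-control arrays (-0.55, 0.114). It was also lost with ribosomal protein centring (-0.55, 0.0882) and with only those groups fitted (0.0689).

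CHSY1 carries both the glucuronic acid and the N-acetylgalactosamine transferase activities that extend the chain. Its brightest set had 8.89, 8.65 and 9.05 in day 28 chondrocytes, against 8.32, 8.91 and 8.71 in day 28 MSCs and 8.32, 8.63 and 8.40 in day 0 MSCs (log2). Chondrocytes lay above all day 0 MSCs by a narrow margin and overlapped with day 28 MSCs. The differences were 0.22 ± 0.19 against day 28 MSCs (95% interval -0.20 to 0.64, limma adjusted p = 0.558) and 0.41 ± 0.19 against day 0 MSCs (adjusted p = 0.128). The second of these passed with arrays centred on ribosomal protein genes (0.62, adjusted p = 0.0273). The difference of day 28 MSCs from day 0 MSCs was 0.20 ± 0.19 (95% interval -0.22 to 0.62, adjusted p = 0.483). The other 2 sets had levels of 3.24 to 5.35, passed in no comparison, and lay on average lower in chondrocytes than in day 28 MSCs, by -0.49 and -0.23.

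**Figure D2:**
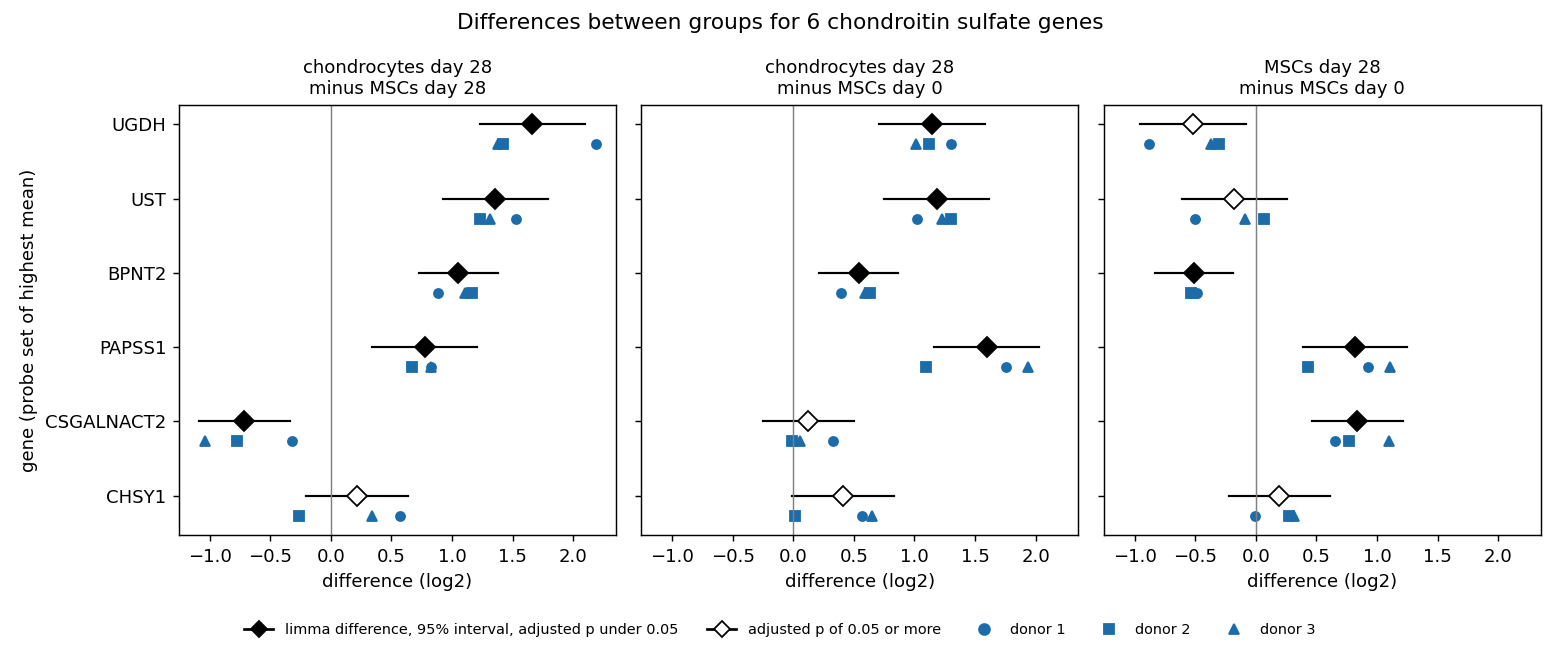
Log2 difference of the brightest probe set of each of the 6 genes in the 3 comparisons, with the 95% interval of limma's model and small points for the donors. UGDH, UST, BPNT2 and PAPSS1 lie above 0 in day 28 chondrocytes against both MSC groups, while CSGALNACT2 lies below 0 only against day 28 MSCs and CHSY1 spans 0 in all 3 comparisons.

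Counted by the brightest set of each gene, 5 of 6 genes were called in day 28 chondrocytes against day 28 MSCs, 4 higher and 1 lower. Of all 9155 genes, 8.35% were called higher and 4.81% lower in that comparison (13.2% in either direction). The same 5 genes had arrays that did not overlap, against 16.9% of all genes higher and 15.1% lower. The median difference of the 6 genes was 0.91, beside -0.015 over all genes. Members were chosen with earlier results of these data known, so the counts and medians here and below describe them without testing them. By probe set, 6 of 11 were called higher and 1 lower, where 6.27% and 4.06% of all probe sets were (10.3% in either direction). Arrays did not overlap for 6 sets higher and 2 lower, beside 13.3% and 13.5% of all probe sets. The count of 5 genes was 3 without chondrocytes of donor 2, without chondrocytes of donor 3, or without both low-control arrays. Calls over all probe sets were then 1356, 1941 and 1895, beside 2482 in the fit reported. UGDH, the brighter UST set and both BPNT2 sets were called in every alternative run for this comparison.

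Against day 0 MSCs, 4 of 6 genes were called higher in day 28 chondrocytes and 0 lower, by limma. None was lower at an unadjusted p under 0.05 either. Of all genes, 15.1% were called higher and 20.9% lower (36% in either direction). CHSY1 and CSGALNACT2 were not called, with unadjusted p of 0.0535 and 0.473. Arrays did not overlap for 5 genes, all higher in chondrocytes, against 21.6% of all genes higher and 32.3% lower. The median difference was 0.84, beside -0.12 over all genes. By probe set, 4 of 11 were called higher and 0 lower, where 15.1% and 15.9% of all probe sets were (31% in either direction), and 6 sets higher and 1 lower did not overlap, beside 21% and 25.7%. UGDH, PAPSS1 and UST were called in all 22 alternatives. For these genes the set of largest SD was the set already used, so that alternative could not differ. For UST the 22 also included the mean of its sets.

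Within the MSCs, 2 of 6 genes rose over 28 days (PAPSS1 and CSGALNACT2) and 1 fell (BPNT2). Of all genes, 13.5% were called higher and 21% lower in that comparison, and the 3 members called stand beside 34.5% of all genes called in either direction, from which nothing particular to the members is read. Arrays did not overlap for 2 genes higher and 2 lower, against 18.1% and 28.8% of all genes. By probe set, 2 of 11 were called higher and 3 lower, against 14.6% and 15.6% of all probe sets (30.2% in either direction), and 2 sets higher and 3 lower did not overlap, against 19.3% and 22.9%. The median difference of the 6 genes was 0.010, beside -0.11 over all genes. The 3 comparisons share arrays, so their values are not independent of each other.

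Direction depends in part on scaling between arrays. Centring on 67 ribosomal protein genes moved the median of all probe sets from -0.0295 to 0.138 for chondrocytes against day 28 MSCs and from -0.0749 to 0.131 against day 0 MSCs, and centring on the array median moved the second to -0.194. Of all calls between chondrocytes and day 28 MSCs, 60.7% were higher in chondrocytes as deposited, 49.7% with median centring and 79.2% with ribosomal centring. Against day 0 MSCs these shares were 48.7%, 37.2% and 66.8%. UGDH, UST and BPNT2 stayed higher in chondrocytes than in day 28 MSCs, and past the threshold, under these and the cyclic loess scaling, as did PAPSS1.

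The genes around the members in the pathway were described with 7 lists of other glycosaminoglycan genes, of which 39 of 78 had a named probe set. In day 28 chondrocytes against day 28 MSCs, 9 of the 39 were called higher (23.1%) and 0 lower, beside 8.35% and 4.81% of all genes, by limma. Across 20 alternatives added after seeing the data, the count was 6 to 13 higher and 0 to 1 lower, the 1 (HYAL1) arising without day 28 MSCs of donor 2. The 13 came with the donor as a block, which added DSE (adjusted p = 0.0424), GUSB (0.0424), HAS2 (0.0420) and UXS1 (0.0134). That block also raised the calls over all probe sets from 2482 to 3110. HAS2 was counted by its brightest set. In the fit reported, a dimmer HAS2 set passed (0.82, limma adjusted p = 0.0372) and another did not (0.60, adjusted p = 0.133). Without the 2 arrays with low controls the count was 6, with ARSB (1.07, adjusted p = 0.0646), B4GALT1 (0.94, 0.109) and PGM3 (0.66, 0.101) no longer called. It was also 6 without chondrocytes of donor 2. Calls over all probe sets were 1895 without the low-control arrays and 1356 without chondrocytes of donor 2. At an unadjusted limma p under 0.05, 16 of the 39 were higher and 2 lower. The share of all genes at that threshold was not counted, so these counts have no like share beside them. The median difference of the 39 was 0.31. The lists, too, were chosen with earlier results of these data known, so their counts and medians are a description only. Among the 18 measured genes of the 4 lists closest to chondroitin synthesis and its donors, 5 were higher and 0 lower, with a median of 0.46.

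The list of sugar and sulfate donors and their transport had 3 of 9 measured genes higher in chondrocytes than in day 28 MSCs and 0 lower. These stand beside 8.35% and 4.81% of all genes. SLC35D2, a Golgi nucleotide sugar transporter, had 7.19, 7.14 and 7.21 in day 28 chondrocytes, against 5.68, 5.47 and 6.37 in day 28 MSCs and 7.04, 7.13 and 6.89 in day 0 MSCs (log2). Chondrocytes exceeded day 28 MSCs by 1.34 ± 0.21 (limma adjusted p = 0.0046), and day 28 MSCs stood apart below both other groups. GNPNAT1 and PGM3, consecutive enzymes on the way to UDP-N-acetylglucosamine, were higher in chondrocytes than in day 28 MSCs by 0.81 ± 0.15 (adjusted p = 0.00864) and 0.77 ± 0.16 (adjusted p = 0.0158). PGM3 was not called without chondrocytes of donor 2 or 3 (adjusted p = 0.0501 and 0.0521), or without day 28 MSCs of donor 1 (0.0521).

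UAP1, which completes UDP-N-acetylglucosamine, and UGP2, which makes the UDP-glucose that UGDH uses, had the highest levels of this list among genes not called between chondrocytes and day 28 MSCs. UAP1 had 11.18, 10.85 and 11.04 in day 28 chondrocytes, against 10.49, 11.13 and 10.57 in day 28 MSCs and 9.70, 9.92 and 9.30 in day 0 MSCs (log2). It overlapped between the day 28 groups (0.29 ± 0.22, limma adjusted p = 0.492) and was higher in each of them than in day 0 MSCs, by 1.38 ± 0.22 in chondrocytes (adjusted p = 0.00146) and 1.09 ± 0.22 in MSCs (adjusted p = 0.00485). Its 2 dimmer sets passed in neither comparison with day 0. UGP2 had a difference of -0.24 ± 0.14 between the day 28 groups (adjusted p = 0.347) and rose by 0.61 ± 0.14 in the MSCs over 28 days (adjusted p = 0.00931). Within the MSCs, SLC35D2 fell by 1.18 (adjusted p = 0.00292) and PGM3 by 0.75 (adjusted p = 0.00677), so 2 genes of the list rose and 2 fell. Of all genes, 13.5% rose and 21% fell, and nothing particular to the list is read from these counts.

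**Figure D3:**
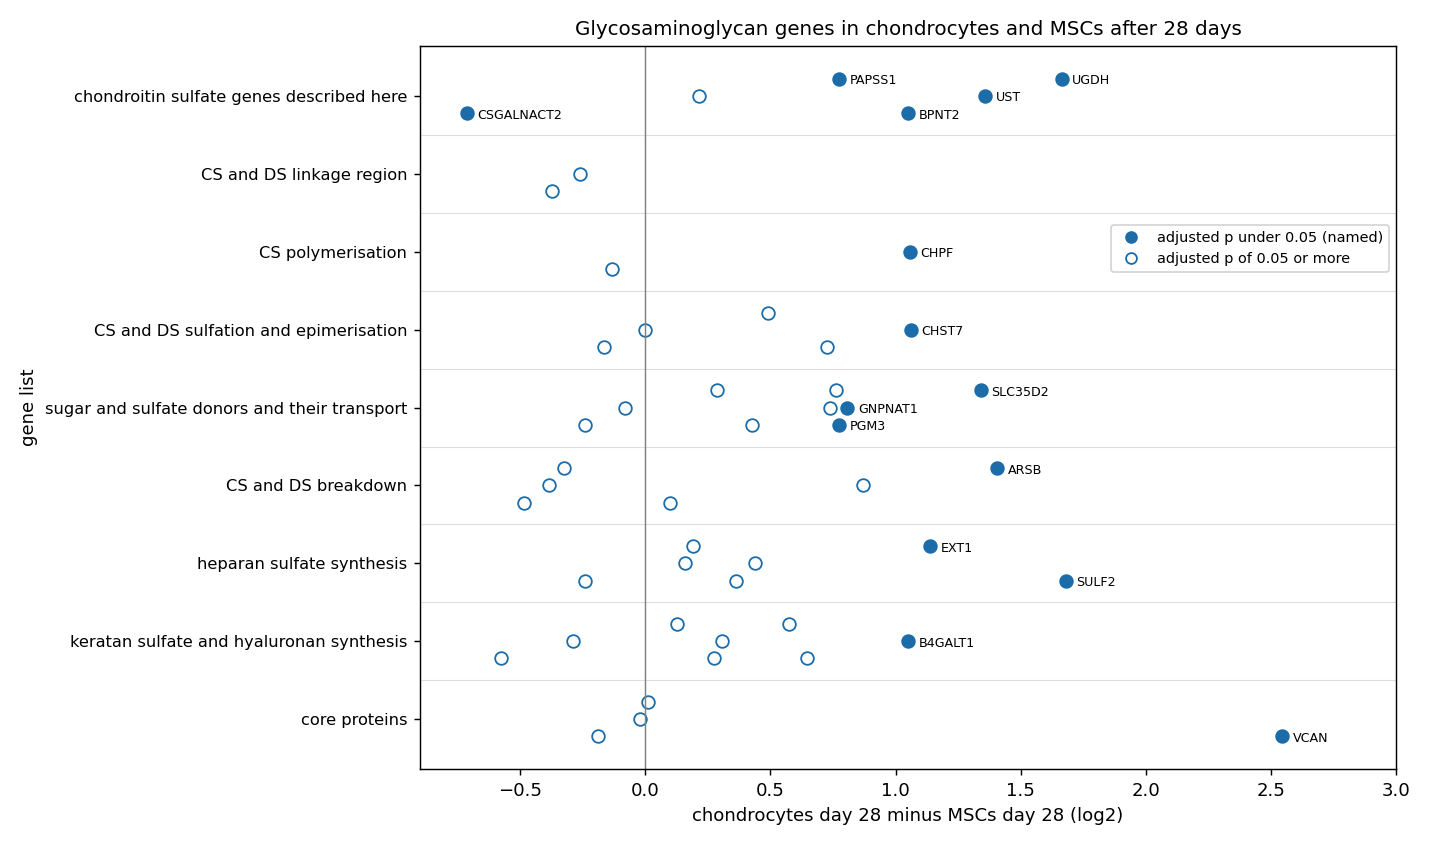
Log2 difference of day 28 chondrocytes minus day 28 MSCs for each measured gene of the glycosaminoglycan lists, the members and the core proteins (CS, chondroitin sulfate; DS, dermatan sulfate), with genes past the limma threshold marked. UGDH, UST, BPNT2 and PAPSS1 lie at 0.78 to 1.66, and 9 of the 39 other pathway genes were called higher and 0 lower.

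Of the enzymes that act on the chain itself, few were measured. Beside 8.35% of all genes called higher, chain polymerisation had 1 of 2 measured genes higher in chondrocytes than in day 28 MSCs. This was CHPF, a partner of the chondroitin synthases, with 8.70, 8.79 and 7.99 in day 28 chondrocytes, against 7.60, 7.50 and 7.20 in day 28 MSCs and 8.51, 7.67 and 8.34 in day 0 MSCs (log2). Chondrocytes lay above day 28 MSCs without overlap, by 1.06 ± 0.27 (limma adjusted p = 0.0406), and overlapped with day 0 MSCs. That call was lost without chondrocytes of donor 1 or 2 (adjusted p = 0.129 and 0.146), without day 28 MSCs of donor 1, 2 or 3 (0.0704, 0.0882 and 0.0942), without day 0 MSCs of donor 3 (0.0586) and with median centring (0.0596). The linkage region list had 0 of 2 measured genes called in that comparison, with XYLT2 at -0.26 ± 0.18 (adjusted p = 0.436) and B3GAT3 at -0.37 ± 0.39 (adjusted p = 0.646). XYLT2, which adds the xylose that begins the linkage to the core protein, was lower in chondrocytes than in day 0 MSCs, at -0.76 ± 0.18 (adjusted p = 0.00999), or -0.56 with ribosomal protein centring (adjusted p = 0.0603). Its difference of -0.50 ± 0.18 within the MSCs missed the threshold (adjusted p = 0.0583) and passed it with the donor as a block (0.0422).

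Of all genes, 8.35% were called higher in chondrocytes than in day 28 MSCs and 4.81% lower. The sulfation and epimerisation list had 1 of 5 measured genes higher in that comparison and 0 lower. It was CHST7, a chondroitin 6-sulfotransferase, with 3.42, 4.03 and 3.25 in day 28 chondrocytes, against 2.81, 2.33 and 2.39 in day 28 MSCs and 2.90, 2.92 and 2.95 in day 0 MSCs (log2), all below the array median. The difference between the day 28 groups was 1.06 ± 0.22 (limma adjusted p = 0.0145), or 0.97 without day 28 MSCs of donor 2 (adjusted p = 0.0519). The MSC values were not shown to be above background, so that this size is uncertain. One of its other 3 probe sets was also called (1.25, adjusted p = 0.00542), and the remaining 2 were not. DSE and DSEL, epimerases that turn glucuronic into iduronic acid and so make dermatan sulfate, both fell in the MSCs over 28 days. DSEL had 6.90, 7.09 and 7.03 in day 28 chondrocytes, against 6.60, 5.69 and 6.54 in day 28 MSCs and 8.52, 8.60 and 9.28 in day 0 MSCs (log2). It fell by 2.52 in the MSCs (SE 0.28, adjusted p = 0.000191) and was lower in chondrocytes than in day 0 MSCs by -1.79 ± 0.28 (adjusted p = 0.00124). DSE fell by 0.76 in the MSCs (SE 0.15, adjusted p = 0.00439) and differed by 0.49 ± 0.15 between chondrocytes and day 28 MSCs, without passing (adjusted p = 0.0743), or past the threshold with the donor as a block (adjusted p = 0.0424).

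Among 6 measured genes of chondroitin breakdown, 1 was higher in chondrocytes than in day 28 MSCs and 0 lower. These stand beside 8.35% and 4.81% of all genes. ARSB, the lysosomal sulfatase of N-acetylgalactosamine 4-sulfate, had 5.32, 5.58 and 5.96 in day 28 chondrocytes, against 4.14, 4.61 and 3.89 in day 28 MSCs and 6.35, 6.48 and 5.77 in day 0 MSCs (log2). The chondrocytes lay above day 28 MSCs by 1.41 ± 0.26 (limma adjusted p = 0.00927), or 1.07 without the 2 low-control arrays (adjusted p = 0.0646), and overlapped with day 0 MSCs. In the MSCs over 28 days, ARSB fell by 1.99 (adjusted p = 0.000493) and HEXA, a lysosomal hexosaminidase subunit, by 1.60 (adjusted p = 0.00391), while HYAL1, a lysosomal hyaluronidase, rose by 1.25 (adjusted p = 0.000347). GUSB, a lysosomal glucuronidase, was the other gene of this list to fall, with -1.25 (adjusted p = 0.00524).

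The lists of other glycosaminoglycans had calls as well. Of 7 heparan sulfate genes, 2 were higher in chondrocytes than in day 28 MSCs and 0 lower, beside 8.35% and 4.81% of all genes. The 2 were SULF2, an extracellular heparan 6-sulfatase (1.68 ± 0.26, limma adjusted p = 0.00419), and EXT1, a heparan polymerase subunit (1.14 ± 0.20, adjusted p = 0.00715). Of 8 keratan sulfate and hyaluronan genes, 1 was higher, B4GALT1, a galactosyltransferase (1.05 ± 0.24, adjusted p = 0.0226). The dimmer sets of EXT1 (0.21 on both, adjusted p = 0.657 and 0.470) and of B4GALT1 (1.00, adjusted p = 0.0506) did not pass. On its brighter set B4GALT1 was not called without chondrocytes of donor 2 or 3 (adjusted p = 0.0901 and 0.0563), without day 28 MSCs of donor 1 or 3 (0.0626 and 0.0568), or without the 2 low-control arrays (0.109). In the MSCs over 28 days, 7 of the 39 genes rose and 11 fell, where 13.5% and 21% of all genes did, with a median of -0.11. Over all probe sets, the fit reported had 3512 rises and 3744 falls in the MSCs. Without day 0 MSCs of donor 1, rises were 4 among the 39 genes and 2846 over all probe sets. Without the 2 low-control arrays the 39 genes had 5 rises and 10 falls, beside 3131 and 3191 over all probe sets. There, CHST2 (1.47, adjusted p = 0.0549), NDST2 (0.98, 0.0699), B4GALT1 (-0.86, 0.0583) and HS6ST1 (-0.66, 0.0773) lost their calls, while BPNT1 fell (-0.56, 0.0202). Chondrocytes had 9 of the 39 higher (23.1%) and 5 lower (12.8%) than day 0 MSCs, beside 15.1% and 20.9% of all genes, with a median of 0.16 beside -0.12 over all genes. Without the 2 low-control arrays 8 were higher, UXS1 no longer among them (0.56, adjusted p = 0.0844), and 5 lower.

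The core proteins that carry these chains were measured on the same arrays. ACAN had 12.37, 12.51 and 12.28 in day 28 chondrocytes, against 12.70, 12.87 and 12.15 in day 28 MSCs and 5.63, 6.63 and 7.50 in day 0 MSCs (log2). It rose by 5.99 ± 0.40 in the MSCs (limma adjusted p = 1.66e-05) and the day 28 groups overlapped, at -0.19 ± 0.40 (adjusted p = 0.850). BGN (biglycan) rose by 1.95 ± 0.12 in the MSCs (adjusted p = 1.01e-05) and differed by 0.013 ± 0.12 between the day 28 groups (adjusted p = 0.971), where its values were 12.76 to 12.81 and saturation was not tested. Its dimmer set, at 11.61 to 12.06 in the day 28 groups, differed between them by 0.017 ± 0.16 (limma adjusted p = 0.971). DCN (decorin) was at 12.56 to 13.14 on all 9 arrays and passed in no comparison (adjusted p = 0.282 within the MSCs).

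VCAN, the versican core protein of loose and embryonic matrix, had 8.45, 9.31 and 8.45 in day 28 chondrocytes, against 6.53, 6.18 and 5.88 in day 28 MSCs and 10.29, 10.35 and 10.43 in day 0 MSCs (log2). It fell by 4.16 in the MSCs (SE 0.25, limma adjusted p = 9.71e-06). Chondrocytes lay between the MSC groups, 2.54 ± 0.25 above day 28 MSCs (adjusted p = 0.00037) and -1.62 ± 0.25 relative to day 0 MSCs (adjusted p = 0.00134).

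**Figure D4:**
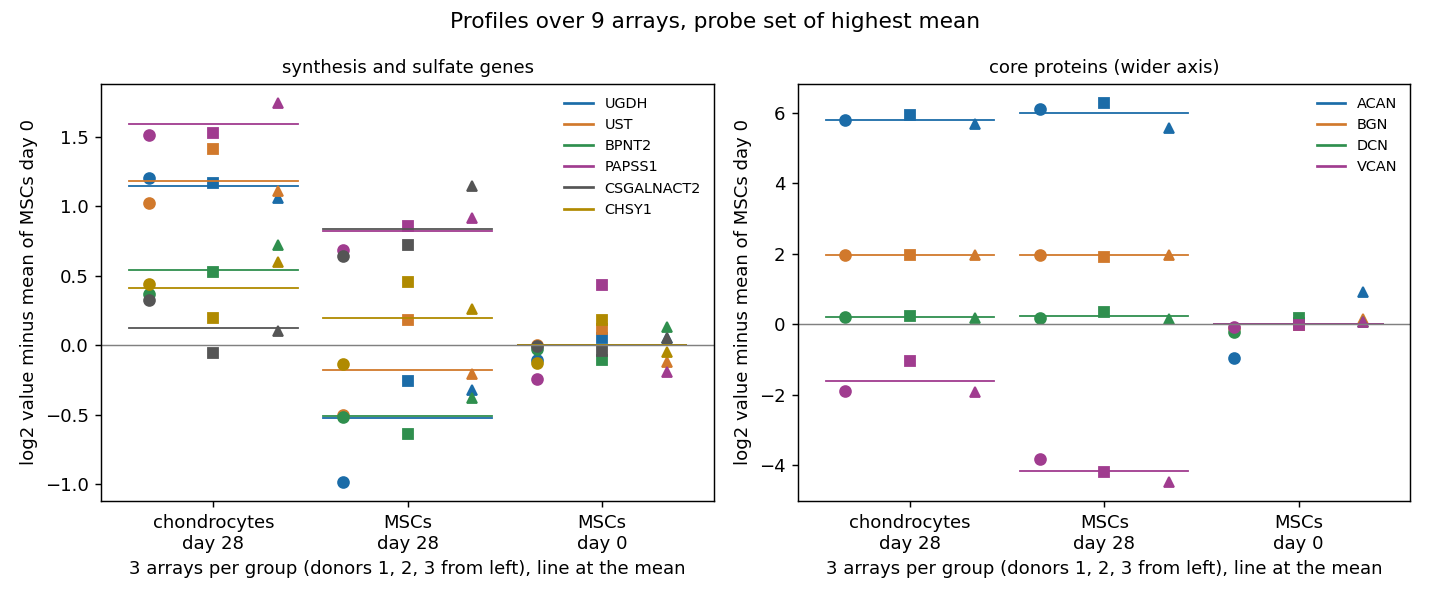
Log2 value minus the mean of day 0 MSCs on each of the 9 arrays, for the members by their brightest set and for the core proteins ACAN, BGN, DCN and VCAN. Lines mark group means, and the core proteins have a wider axis. ACAN and BGN overlap between the day 28 groups, while UGDH, UST, BPNT2 and PAPSS1 have every chondrocyte array above every MSC array.

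Between members, profiles over the 9 arrays, each centred on its own mean, were closest for UGDH and UST, with a root mean square difference of 0.218 on the log2 scale. They were farthest apart for UGDH and CSGALNACT2, at 0.991. Among 9027 other genes, the profiles most like UGDH were those of AAAS (0.109), INSIG1 (0.152) and EZH2 (0.180). The nearest to UST were ATP2B1 (0.154), DHRS1 (0.192) and TUBB2B (0.197), and to BPNT2 they were REEP4 (0.130), TUBG1 (0.131) and GOLM1 (0.142). For PAPSS1 they were CCN1 (0.186), PLXNA3 (0.190) and PPP1R3C (0.209). CSGALNACT2 and CHSY1 had group means that spanned under 1 on the log2 scale, and no nearest profiles were sought for them.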

How the data were processed

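Total RNA of 9 samples was amplified from a poly(T) primer and labelled with biotin, per the labels' protocols. The authors deposited log2 values, as their range shows. They used RMA, per the submitters' processing notes, in a version not given in the sources used here. RMA includes a quantile normalization between arrays, which removes most differences in total signal. The deposited arrays still had medians of 4.91 to 5.10 and highest values of 13.36 to 13.96, so centring was tried as an alternative. Priming at the poly(A) tail favours 3′ ends.

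Of 24128 probe sets, 112 controls were left out. Symbols came from the platform annotation, replaced by the reference symbol of the same gene identifier where there was one. In this way 13292 sets had 1 symbol, 86 several and 10638 none. A gene was represented by its set of highest mean. All 3 groups entered 1 model (lmFit and eBayes of limma 3.58.1, run in R 4.3.3), tested on simulated data, with Benjamini-Hochberg adjustment over 24016 probe sets and calls at an adjusted p under 0.05. Differences are log2, with the model's SE. The number of arrays limits the precision.

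Same-numbered samples come from the same calf per the labels. Their deviations from the group means correlated at 0.108 to 0.412 over 9 pairs, against -0.303 to 0.152 over 18 pairs of different calves. The value of 0.412 was that of the 2 arrays with low hybridisation controls, where calf and hybridisation cannot be told apart. The other same-calf pairs between the day 28 groups had 0.164 and 0.202. No donor block was in the fit reported.

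Genes were named from the members, per list and comparison up to 3 called genes of smallest p and up to 2 others of highest mean, the 3 nearest profiles of members spanning at least 1, and 4 core proteins. Some genes that met this rule were not described above, among them GFPT1, EXTL1, B3GNT2 and EXT2. UGP2 and GUSB within the MSCs, the cell type markers named and genes named for a changed call fall outside this rule and were chosen after their values were seen. Members and lists were chosen with earlier results of these data known. Alternatives covered left-out arrays, scaling, filters on low signal, the variance model, blocks and the choice of probe set.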

Additional observations from a re-analysis of the deposited data

How the results depend on the processing

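No member difference that passed the threshold changed sign in any alternative run. The count of member genes called between day 28 chondrocytes and day 28 MSCs was 5, ran from 3 to 5 with each array left out, and was 3 without the 2 arrays with low hybridisation controls. Over all probe sets, calls in that comparison were 2482, ran from 1356 to 2598 with each array left out, and were 1895 without those 2 arrays. Against day 0 MSCs the count of 4 member genes ran from 3 to 4 with each array left out, and within the MSCs the count of 3 ran from 2 to 3. With the donor pairing as a block the counts were 5, 4 and 3, and the block changed the call of 1 member probe set, the dimmer BPNT2 set named above. Both low-control arrays are of donor 3, whose effect and that of hybridisation cannot be told apart there. With low or high controls as a block, the counts of genes were 5, 4 and 3, and the second CSGALNACT2 set passed between chondrocytes and day 0 MSCs (-0.44, limma adjusted p = 0.0450). The dimmer BPNT2 set passed in that comparison in 7 of 19 alternatives. The cause of these changes was not tested. With 3 arrays per group, PAPSS1 and CSGALNACT2 between the day 28 groups are near the threshold, and the dimmer sets of UST, BPNT2 and CHSY1, like CHST7, lie where signal was not shown to be above background. A filter at the median level left out these member sets, which have no value under it.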
